A study of Mus musculus with 15 samples.

Results

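C1qa, C1qb, C1qc, Apoe, Csf1r, Lyz2, Adgre1, Cd68 and Mertk are 9 genes by which intestinal macrophages are commonly recognised. They were picked by name out of the 22797 genes in the count files, through their Entrez identifiers, and are described here in RNA of sorted innate lymphoid cells over the day. All 9 were among the 15339 genes that passed the filter on low counts. Because the names were proposed with earlier results of these libraries in view, their levels over time and between the sorted cell types are a description, and the tests beside them support nothing.

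The libraries hold polyA RNA of ILC2 and ILC3 from the small intestine of female mice. The labels name no strain, age or genotype. Mice were killed at zeitgeber time (ZT, hours after lights on) 4, 10, 16 and 23, and cells from 6 mice per time were pooled, stained and sorted by flow cytometry. Each cell type at each time has 2 libraries, except ILC2 at ZT16 with 1, which gives 7 ILC2 and 8 ILC3 libraries. The series text calls them biological replicates, but separate pools are not named for the 2 libraries of 1 time, and a p-value here then measures only the spread between libraries, which may be technical. All ILC2 libraries carry the batch label 1 and all ILC3 libraries the batch label 2, and cell type and batch cannot be told apart.

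Total counts were between 4016298 and 18538315 in ILC2 libraries, and between 5903163 and 24794403 in ILC3 libraries. The sorted identities were visible in their markers. The summed level of 6 ILC2 genes, Gata3 among them, was 1285 to 2586 counts per 1e+06 reads (CPM) in the ILC2 libraries against 30.1 to 101 in the ILC3 libraries. The summed level of 6 ILC3 genes, Il22 and Il23r among them, was 712 to 2150 CPM in ILC3 against 21.7 to 67.0 in ILC2. Il17a, also on that list, did not separate the cell types (log2 difference ILC3 minus ILC2 -0.19, edgeR adjusted p = 0.808). Genes of other cells were present in both: in each of the 15 libraries the 9 macrophage genes were read, with the single exception of Mertk in 1 ILC2 library. CPM values throughout are scaled with TMM factors, which adjust for differences in library composition. In bulk RNA, fewer cells of a type and less RNA per cell cannot be told apart.

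Macrophages of the gut wall take up dying cells and bacteria and are replaced in large part from blood monocytes. They depend on the receptor CSF1R, whose ligands are CSF1 and IL-34. They make much of the C1q of a tissue, the recognition part of the first complement component, which is built from A, B and C chains encoded by C1qa, C1qb and C1qc. Apoe encodes a lipid carrier that loaded macrophages secrete, Lyz2 encodes the lysozyme of myeloid cells, Adgre1 the F4/80 antigen, Cd68 a glycoprotein of endosomes and lysosomes, and Mertk a receptor tyrosine kinase that binds apoptotic cells through GAS6 and protein S. ILC2 and ILC3 are lymphocytes without antigen receptors, and the hallmark cytokines are IL-5 and IL-13 for ILC2 and IL-22 for ILC3.

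The 3 C1q chain genes are neighbours on chromosome 4 between 136880126 and 136898844 (GRCm38.p6, which is mm10). The 250 bases before the RefSeq start sites of C1qb, C1qc and Lyz2 are shown because, of the genes with a window, these are the ones that hold the 7 letters AGGAAGT, letters typical of sites of the macrophage factor PU.1 and of other ETS factors. All 3 also belong to the genes whose ILC3 levels were lowest at ZT10, but so do Apoe, without a match, and C1qa, without a window. Each sequence runs 5′ to 3′ toward the start site, all 3 lie on the minus strand, and capitals mark the match, which reads ACTTCCT because it is on the opposite strand.
C1qb, chr4:136886201-136886450: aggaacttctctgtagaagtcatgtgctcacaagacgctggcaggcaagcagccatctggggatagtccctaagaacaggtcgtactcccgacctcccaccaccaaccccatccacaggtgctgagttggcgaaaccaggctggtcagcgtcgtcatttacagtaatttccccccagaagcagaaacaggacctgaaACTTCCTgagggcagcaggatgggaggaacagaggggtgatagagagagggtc
C1qc, chr4:136892915-136893164: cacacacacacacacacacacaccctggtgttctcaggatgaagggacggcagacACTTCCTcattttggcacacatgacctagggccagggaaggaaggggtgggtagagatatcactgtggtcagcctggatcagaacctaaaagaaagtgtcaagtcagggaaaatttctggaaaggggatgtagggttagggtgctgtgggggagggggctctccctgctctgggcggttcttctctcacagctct
Lyz2, chr10:117282273-117282522: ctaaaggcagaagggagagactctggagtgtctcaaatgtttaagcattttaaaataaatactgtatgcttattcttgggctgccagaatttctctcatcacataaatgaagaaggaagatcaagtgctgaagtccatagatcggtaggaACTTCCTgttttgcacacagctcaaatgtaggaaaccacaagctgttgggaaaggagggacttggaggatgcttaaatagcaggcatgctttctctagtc
The matches begin at -53, -195 and -100 from the start site. Windows were found for 6 of the 9 genes, 8 windows in all since Apoe has 3, and both strands were searched. The windows of Apoe, Cd68 and Mertk held no AGGAAGT, and 7.7% of all 32851 promoter windows of this length held it. Of 3 motifs of the circadian clock, the E-box CACGTG was in none of the 8 windows, against 6.0% of all windows. The D-box TTANGTAA was in the Cd68 window, against 2.1% of all windows. AGGTCA, a short site of REV-ERB factors, was in the C1qc window, against 14.0% of all windows. None of the matches overlapped another. A match is a stretch of letters and was not tied to any binding in these data.

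C1qa (chromosome 4, 136895916 to 136898844) was highest at ZT4 and lowest at ZT10 in ILC3. Its ILC3 levels were 209 and 173 CPM (ZT4), 55.5 and 44.9 (ZT10), 154 and 96.7 (ZT16) and 114 and 130 (ZT23). Both ZT10 libraries lay below the other 6, and both ZT4 libraries above them. The group mean at ZT4 was 3.81 times that at ZT10, a fitted difference of -1.93 ± 0.77 on the log2 scale (ZT10 minus ZT4, standard error, 2 libraries each).

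C1qb (chromosome 4, 136880126 to 136886200) had the same order. Its ILC3 levels were 73.5 and 62.1 CPM (ZT4), 20.0 and 13.8 (ZT10), 59.4 and 40.0 (ZT16) and 37.9 and 50.6 (ZT23), with a log2 difference of -2.00 ± 0.86 between ZT10 and ZT4. C1qc (chromosome 4, 136889801 to 136892936) stood at 163 and 134 CPM (ZT4), 37.6 and 35.1 (ZT10), 112 and 77.6 (ZT16) and 83.0 and 94.6 (ZT23), with a difference of -2.03 ± 0.77. For all 3 chains the ZT10 and ZT4 libraries of ILC3 did not overlap, and ZT16 and ZT23 lay between them.

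Apoe (chromosome 7, 19696244 to 19701310), the lipid carrier gene, followed the C1q chains in ILC3. Its levels were 973 and 1027 CPM (ZT4), 296 and 199 (ZT10), 765 and 517 (ZT16) and 523 and 555 (ZT23). The 2 ZT10 libraries were again the lowest of the 8 and the 2 ZT4 libraries the highest, and the log2 difference between ZT10 and ZT4 was -2.01 ± 0.76.

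Csf1r, the growth factor receptor gene on chromosome 18, was also highest at ZT4, and lay at a lower level at both ZT10 and ZT23. Its ILC3 levels were 354 and 289 CPM (ZT4), 142 and 147 (ZT10), 238 and 194 (ZT16) and 142 and 149 (ZT23). The difference between ZT10 and ZT4 was -1.16 ± 0.62 and that between ZT23 and ZT4 was -1.14. Adgre1 (chromosome 17, 57358581 to 57483529) had the same 2 low times. Its ILC3 levels were 177 and 96.2 CPM (ZT4), 58.2 and 60.3 (ZT10), 99.7 and 80.2 (ZT16) and 59.1 and 56.0 (ZT23). For F4/80 the second ZT4 library overlapped with ZT16, so the log2 difference between ZT10 and ZT4, -1.20 ± 0.70, rests in large part on ZT4 replicate 1, and without that library it was -0.70.

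Lyz2 (chromosome 10, 117277541 to 117282272) was lowest at ZT10 in ILC3, with ZT4 and ZT23 overlapping. Its levels were 1489 and 1046 CPM (ZT4), 507 and 696 (ZT10), 897 and 1037 (ZT16) and 928 and 1347 (ZT23), and the difference between ZT10 and ZT4 was -1.08 ± 0.66. Its near-identical neighbour Lyz1, the lysozyme gene of Paneth cells (chromosome 10, 117287795 to 117292868), stood at 138 to 1525 CPM in 7 ILC3 libraries and at 3824 in ZT23 replicate 2. The counting of reads that map to both genes is not given in the sources used here, so the split between them is uncertain, most of all in that library.

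Cd68 (chromosome 11, 69664213 to 69666170) did not set ZT10 apart. Its ILC3 levels were 194 and 102 CPM (ZT4), 93.6 and 108 (ZT10), 89.6 and 114 (ZT16) and 82.2 and 77.6 (ZT23). ZT4 replicate 1 was far above the other 7 and the 2 ZT23 libraries were the lowest, while ZT4 replicate 2, ZT10 and ZT16 overlapped. The fitted difference between ZT10 and ZT4 went from -0.55 ± 0.31 to -0.02 without it. The same library, ZT4 replicate 1, had the highest summed level of 9 dendritic cell genes, 3083 CPM against 870 to 1533 in the other 7 ILC3 libraries. It was also highest for 18 other macrophage surface genes (2411 CPM against at most 1062) and 12 macrophage secreted products (2057 against at most 1031). For 15 ligands and partners of the 9 genes it was not the highest. It was the shallowest ILC3 library, at 5903163 counts. Whether dendritic cells or any of these bear on its Cd68 and Adgre1 levels was not tested.

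Mertk (chromosome 2, 128698915 to 128803162) had the lowest level of the 9 per kilobase of gene model. Its ILC3 levels were 4.84 and 5.96 CPM (ZT4), 2.31 and 0.95 (ZT10), 2.46 and 1.62 (ZT16) and 3.80 and 8.67 (ZT23), from 24 to 139 reads a library. The 2 highest libraries, ZT23 replicate 2 and ZT4 replicate 2, were also the 2 ILC3 libraries with the most RNA of epithelial genes, a summed 10770 and 3703 CPM over 12 genes against 371 to 950 in the other 6. ZT23 replicate 2 stood apart in 4 red cell genes as well, at 1045 CPM against 28.7 to 126. Their part in the Mertk level was not tested.

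**Figure D1:**
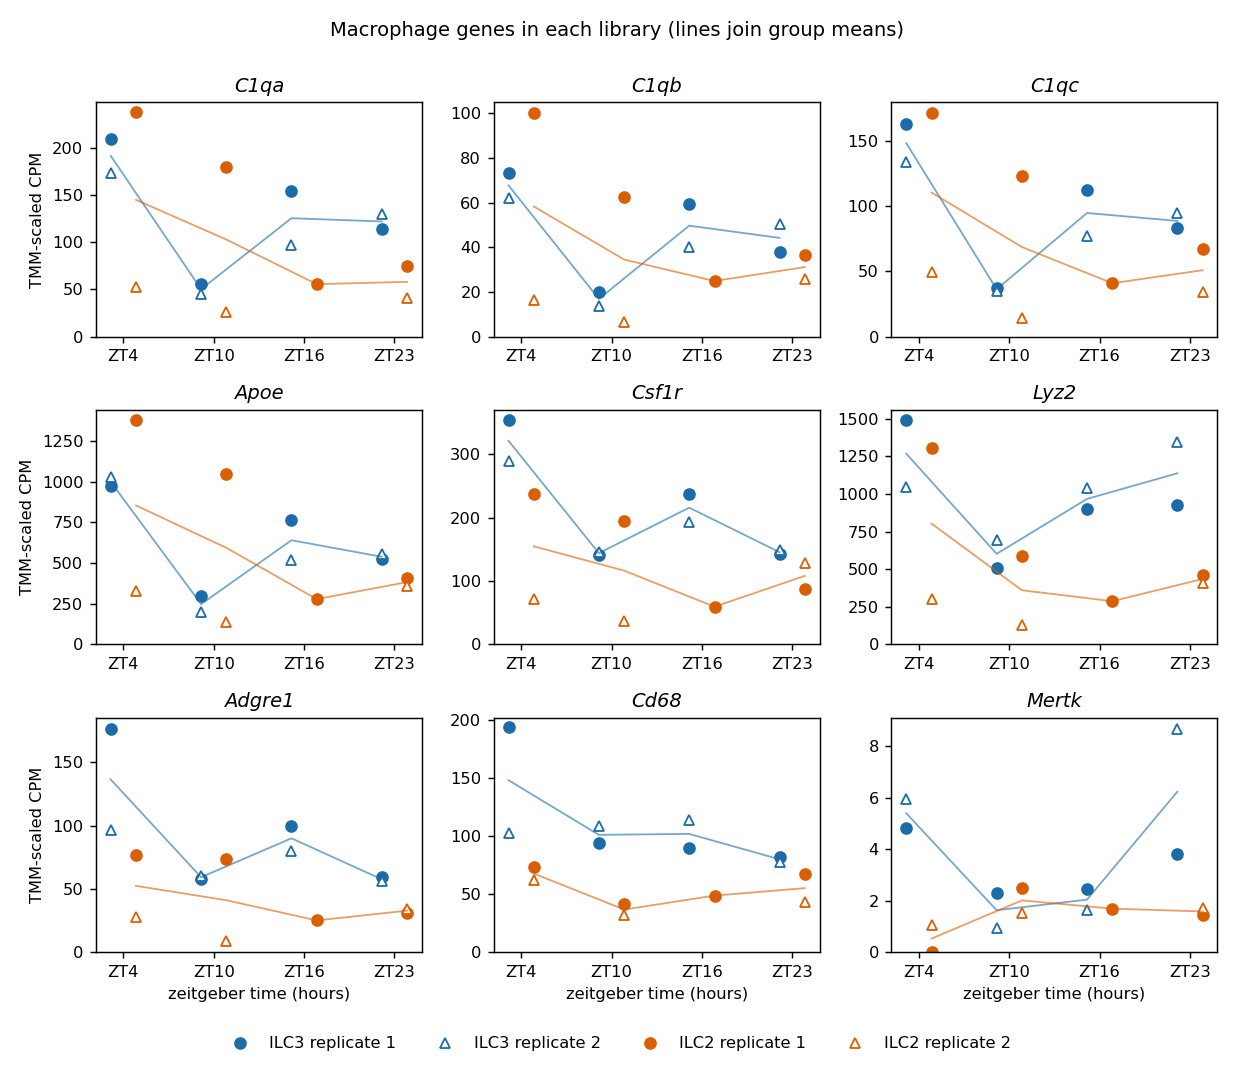
Level of each of the 9 genes in every library, in TMM-scaled CPM on a linear axis from 0, by zeitgeber time. Filled circles are replicate 1 and open triangles replicate 2, blue for ILC3 and orange for ILC2, and lines join the group means. In ILC3 both ZT10 libraries are the lowest for the C1q chains, Apoe and Lyz2. In ILC2 the 2 replicates at ZT4 and at ZT10 lie far apart for all of the genes but Cd68 and Mertk.

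Over the 9 genes, both ILC3 ZT10 libraries were below the other 6 ILC3 libraries for 5, namely the 3 C1q chains, Apoe and Lyz2. The same held for 1.63% of all genes tested. Both ZT10 libraries were below both ZT4 libraries for 8 of 9, with Cd68 the exception, against 10.5% of all genes. Both ZT4 libraries were above the other 6 for 5 of 9, the C1q chains, Apoe and Csf1r, against 2.65% of all genes. The median fitted difference between ZT10 and ZT4 in ILC3 was -1.73 over the 9 genes and -0.03 over all genes. Between ZT16 and ZT10 it was 0.68 and between ZT23 and ZT10 1.12, against 0 over all genes in both cases.

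None of this passed the test over time. edgeR's quasi-likelihood F-test over the 4 times called 0 of 9 in ILC3, with adjusted p-values of 0.965 to 0.995, and the share of all genes called was 0%. At an unadjusted p under 0.05 it also called 0 of 9, against 4.36% of all genes, and the smallest unadjusted p among the 9 was that of Cd68 (0.0797). DESeq2 called 0 of the 8 that it gave an adjusted p and limma voom 0 of 9. The count was also 0 of 9 when the ILC3 libraries were fitted alone. In the main fit, a shared spread per gene was estimated from the libraries of both cell types. For C1qa the 2 replicates differed 1.21-fold (ZT4) and 1.24-fold (ZT10) in ILC3, against 4.56-fold and 7.01-fold in ILC2. This wide ILC2 spread, found in all of the genes but Cd68 and Mertk, thus enters the ILC3 tests and standard errors. With the spread so estimated and at most 2 libraries a time, the F-test called none of the 9 in ILC3. Differences between 2 single times were not tested.

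**Figure D2:**
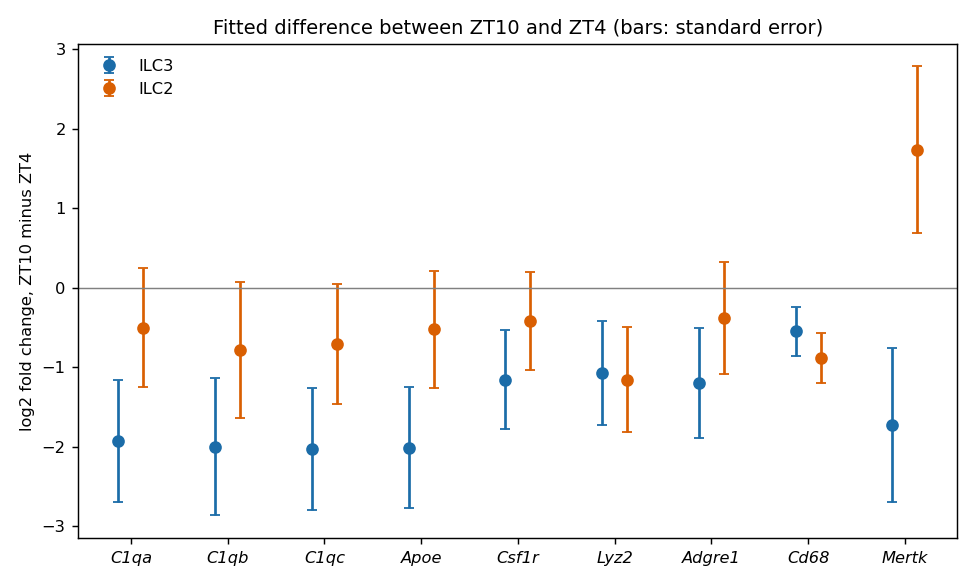
Fitted log2 fold change between ZT10 and ZT4 for the 9 genes, blue for ILC3 and orange for ILC2, with bars of 1 standard error. The C1q chains and Apoe lie between -2.03 and -1.93 in ILC3, and Mertk is the only gene above 0, in ILC2.

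In ILC2 the 2 replicates of ZT4 and those of ZT10 lay far apart for all of the genes but Cd68 and Mertk, while those of ZT23 were closer. C1qa stood at 237 and 52.1 CPM (ZT4), 180 and 25.6 (ZT10), 55.5 (ZT16) and 74.5 and 41.3 (ZT23). Replicate 1 of ZT4 and replicate 1 of ZT10 were the 2 highest of the 7 libraries, and replicate 2 of ZT10 was the lowest. C1qb ranged 15.6-fold over the 7 libraries, from 6.42 CPM in ZT10 replicate 2 to 100 in ZT4 replicate 1, with a median of 25.6. C1qc ranged 12.3-fold between the same 2 libraries, from 14.0 to 172 CPM, with a median of 49.2.

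Apoe in ILC2 stood at 1379 and 330 CPM (ZT4), 1051 and 137 (ZT10), 278 (ZT16) and 410 and 357 (ZT23). Lyz2 had 1302 and 303 CPM (ZT4), 590 and 129 (ZT10), 287 (ZT16) and 464 and 406 (ZT23). Both genes were thus highest in the same pair of libraries and lowest in ZT10 replicate 2. Csf1r ranged from 37.7 to 237 CPM with a median of 87.2, and Adgre1 from 8.73 to 77.0 CPM with a median of 31.3, again between ZT10 replicate 2 and ZT4 replicate 1.

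Cd68 and Mertk departed from this in ILC2 too. Cd68 spanned 2.29-fold, with 73.5 and 61.8 CPM (ZT4), 41.3 and 32.1 (ZT10), 48.7 (ZT16) and 67.1 and 43.0 (ZT23). Mertk was listed at 0 reads in ZT4 replicate 1, where the C1q chains peaked, and at 10 to 31 reads in the other 6 libraries. At that library's depth a count of 0 allows up to 3 reads.

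ILC2 ZT4 replicate 1 and ZT10 replicate 1 were both above the other 5 ILC2 libraries for 7 of the 9 genes, all but Cd68 and Mertk, against 4.75% of all genes. The difference between ZT10 and ZT4 in ILC2 therefore had no stable sign for these 7. For C1qa it was -0.51 ± 0.75 with all libraries, -2.49 without ZT10 replicate 1 and 0.97 without ZT4 replicate 1. For Apoe the corresponding values were -0.53 ± 0.74, -2.64 and 0.85. edgeR called 0 of 9 over time in ILC2 (adjusted p = 1 for each) and 0 of 9 for a different time profile between the cell types (adjusted p = 1 for each), with 0% of all genes called in both tests. At an unadjusted p under 0.05 the counts were 0 of 9 in both, against 3.36% and 2% of all genes.

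In ILC2, the 2 libraries highest in C1q were also the 2 shallowest, and in ILC3 the order was less regular. In order of total counts, from 4016298 to 18538315, the summed C1q level of the 7 ILC2 libraries was 366, 509, 179, 118, 121, 102 and 46.1 CPM. The raw C1qa counts in that order were 723, 1395, 617, 641, 722, 748 and 467 reads, so the count varied 2.99-fold while the total varied 4.62-fold, and 5 of the 7 lay between 617 and 748. In ILC3, from 5903163 to 24794403 total counts, the summed C1q level was 445, 275, 214, 325, 235, 370, 113 and 93.8 CPM. The 2 ZT10 libraries were the deepest of ILC3, at 23613139 and 24794403 counts, and ZT4 held the shallowest at 5903163 and a deeper one at 20976226, both with high C1q. C1qa had 1394 and 1133 raw counts at ZT10 and 3987 in the deeper library of ZT4. The part of library size in these differences was not tested.

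**Figure D3:**
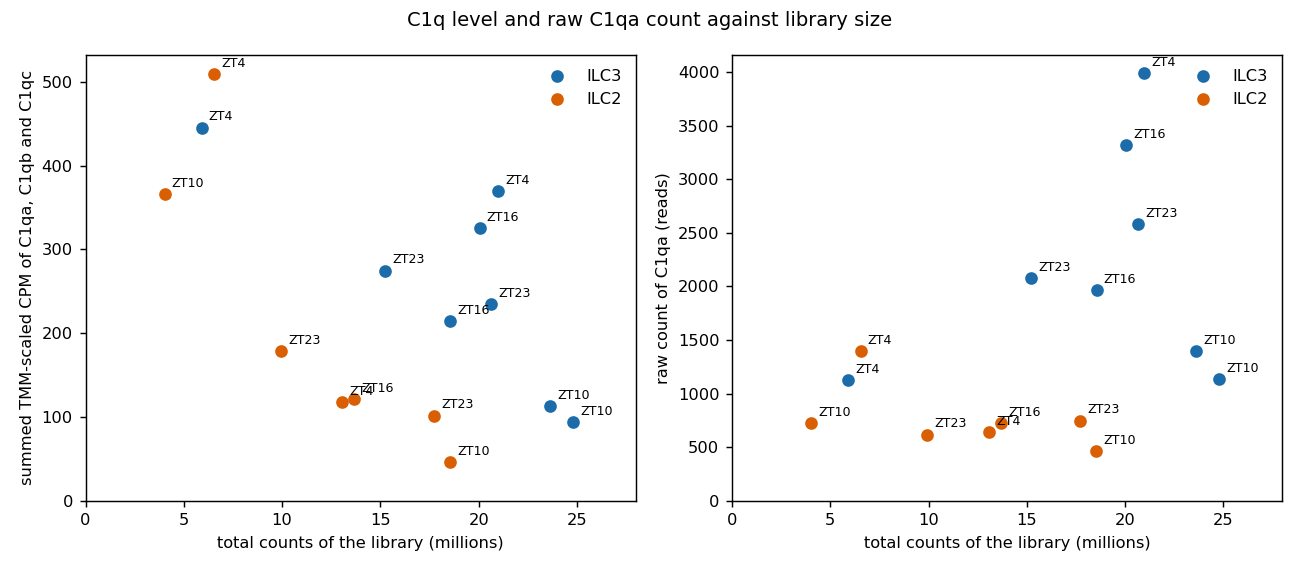
Left, the summed level of C1qa, C1qb and C1qc in TMM-scaled CPM against the total counts of each library. Right, the raw C1qa count against the same totals. Each point is 1 library, blue for ILC3 and orange for ILC2, labelled with its zeitgeber time. The ILC2 sums go from 509 in a library of 6543306 counts to 46.1 in one of 18538315, while 5 of the 7 raw ILC2 counts lie between 617 and 748.

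The genes kept different company in how they varied. Per kilobase of gene model, the ratio of C1qc to C1qa was 0.70 to 0.82 across the 8 ILC3 libraries, a 1.18-fold range while C1qa itself ranged 4.66-fold. The ratio of C1qb to C1qa was 0.31 to 0.42 (1.34-fold) and that of Apoe to C1qa 3.71 to 5.13 (1.38-fold). These 4 genes thus varied as nearly constant proportions of each other between libraries. The ratio of Cd68 to C1qa ranged 4.14-fold, from 0.63 to 2.59, that of Adgre1 3.11-fold, from 0.14 to 0.45, and that of Csf1r 2.84-fold, from 0.32 to 0.91. For these 3 genes the 2 highest ratios were those of the ZT10 libraries. The Lyz2 ratio ranged 2.66-fold, from 5.97 to 15.9, and was highest in ZT10 replicate 2.

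Proportions were looser in ILC2, at 1.73-fold for C1qc, 2.48-fold for C1qb, 1.72-fold for Apoe and 5.45-fold for Cd68. The lowest Cd68 ratios, 0.25 and 0.33, were in ZT10 replicate 1 and ZT4 replicate 1, the 2 libraries with the most C1q. ZT23 replicate 2 had the highest ratios of Csf1r (0.87), Adgre1 (0.28), Apoe (7.47) and Lyz2 (10.0) of the 7.

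**Figure D4:**
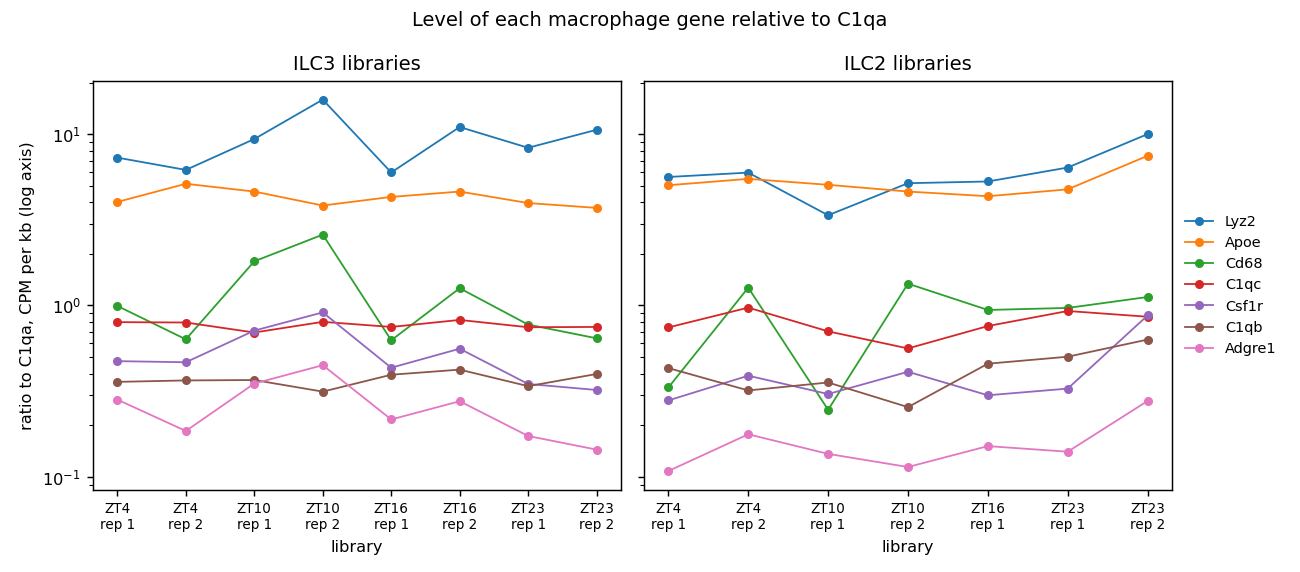
Ratio of 7 of the genes to C1qa in each library, computed from CPM per kilobase and drawn on a log axis, ILC3 left and ILC2 right. Lines only join the points of a gene. C1qc, C1qb and Apoe run nearly level in ILC3, while Cd68, Csf1r and Adgre1 have their 2 highest ratios at ZT10.

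By level per kilobase, which allows genes to be compared, the order in ILC3 was Lyz2 (940 ± 302 CPM per kb, SD, n = 8), Apoe (485 ± 237), C1qa (113 ± 52.2), Cd68 (107 ± 36.6), C1qc (87.4 ± 42.0), Csf1r (53.4 ± 20.7), C1qb (42.1 ± 19.5), Adgre1 (26.4 ± 12.6) and Mertk (1.08 ± 0.72). Lyz2 was above Apoe and Apoe above C1qa in 8 of 8 libraries. The neighbours C1qa and Cd68, and Cd68 and C1qc, were each in that order in 5 of 8 and did not differ beyond their spread. In ILC2 the order was Lyz2 (470 ± 363, n = 7), Apoe (450 ± 370), C1qa (87.9 ± 74.4), C1qc (68.0 ± 53.3), Cd68 (52.1 ± 15.1), C1qb (36.7 ± 30.5), Csf1r (30.2 ± 19.2), Adgre1 (12.2 ± 7.90) and Mertk (0.40 ± 0.21). There C1qc was above Cd68 in 2 of 7 libraries and C1qb above Csf1r in 4 of 7.

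Between the cell types, 8 of the 9 genes overlapped, and Cd68 did not. The C1q chains and Apoe had means for C1qa of 122 ± 56.5 CPM in ILC3 and 95.1 ± 80.5 in ILC2 (SD, n = 8 and 7), and for Apoe of 607 ± 297 and 563 ± 463. Cd68 was higher in ILC3, at 108 ± 36.9 CPM against 52.5 ± 15.2, and all 8 ILC3 libraries were above all 7 of ILC2, as for 6.51% of all genes. Lyz2 averaged 993 ± 319 CPM in ILC3 and 497 ± 384 in ILC2, and Adgre1 85.8 ± 40.7 and 39.6 ± 25.6, both with overlap.

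edgeR called 3 of the 9 between the cell types, against 27.1% of all genes. All 3 were higher in ILC3, against 15.1% of all genes, and 0 of 9 higher in ILC2, against 12% of all genes. They were Cd68 (log2 difference 1.05 ± 0.17, adjusted p = 0.000636), Lyz2 (1.14 ± 0.36, adjusted p = 0.0337) and Adgre1 (1.15 ± 0.38, adjusted p = 0.0413). Those that did not pass were Csf1r (0.92 ± 0.34, edgeR adjusted p = 0.0622), Mertk (1.29 ± 0.53, 0.0957), C1qa (0.41 ± 0.40, 0.491), C1qc (0.39 ± 0.40, 0.517), Apoe (0.17 ± 0.39, 0.813) and C1qb (0.19 ± 0.45, 0.817). The Cd68 call held without each of the 15 libraries in turn. Lyz2 kept its call in 7 and Adgre1 in 4 of those 15 fits. Neither was called with the replicate number as a block (edgeR adjusted p = 0.0643 and 0.0576), a fit that also leaves out ILC2 ZT16. Without ILC2 ZT16 alone both calls were already lost (edgeR adjusted p = 0.1 and 0.124), so their loss cannot be ascribed to the block. With no ILC2 library at ZT16, both fits compared the cell types over ZT4, ZT10 and ZT23 only. The ILC3 ZT16 libraries thus left this contrast too. Without the 2 shallow ILC2 libraries, an alternative added after the values had been seen and one that removes the highest ILC2 levels, 8 of 9 were called higher in ILC3, all but Mertk, against 13.3% of all genes, with C1qa at 1.26 and Apoe at 1.02.

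Other macrophage genes were read from 6 lists of 79 genes, of which 77 passed the filter. Between the cell types edgeR called 18 of the 77 higher in ILC3, against 15.1% of all genes, and 13 higher in ILC2, against 12%. The other 46 did not pass, and the median log2 difference was 0.36 against 0.11 over all genes. Over time edgeR called 0 of 77 in ILC3 and 0 of 77 in ILC2, with 5 and 1 at an unadjusted p under 0.05, against 4.36% and 3.36% of all genes. limma voom called 0 in either. DESeq2 called 0 of 77 in ILC2 and, in ILC3, 1 of the 48 that it gave an adjusted p, the lysosomal protease gene Lgmn. Both ILC3 ZT10 libraries were below the other 6 for 17 of the 77, against 1.63% of all genes, and the median difference between ZT10 and ZT4 in ILC3 was -0.77. Without the 2 shallow ILC2 libraries, the counts higher in ILC3 were 9 of 17 surface receptor genes, 8 of 12 secreted, 4 of 10 other complement, 2 of 14 partner, 4 of 8 factor and 3 of 16 lysosome genes, against 13.3% of all genes. That choice, made after the values had been seen, removes the 2 highest ILC2 libraries for 20 of the 77, against 4.75% of all genes. It thus moves such genes toward ILC3 by construction. The same fit called higher in ILC2 6 of the lysosome genes, 1 each of the complement, partner and factor genes, and 0 of the surface and secreted genes, and it called 23% of all genes in either direction.

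Of 17 further surface receptor genes, 5 were higher in ILC3 and 1 in ILC2, against 15.1% and 12% of all genes. The integrin gene Itgam was higher by 1.77 ± 0.34 (edgeR adjusted p = 0.00214), the beta-glucan receptor gene Clec7a by 1.87 ± 0.43 (0.00646) and Timd4, a phosphatidylserine receptor of long-lived gut macrophages, by 3.82 ± 0.92 (0.00878). Timd4 was low, at a mean of 6.36 CPM in ILC3 and 1.27 in ILC2. The size of its difference rests in part on the single ILC2 ZT16 library, fitted at -8.07 relative to ILC2 ZT4. Cx3cr1 and Fcgr3 also passed. Tlr4 was lower by -1.27 ± 0.37 (edgeR adjusted p = 0.0237), a call kept in 11 of the 15 fits without 1 library. Clec7a in ILC3 stood at 1457 and 427 CPM (ZT4), 391 and 270 (ZT10), 186 and 248 (ZT16) and 229 and 382 (ZT23), so that 1 library was far above the rest. Sirpa had the list's smallest unadjusted p over time in ILC3 (edgeR, 0.0439) with a difference of -0.42 between ZT10 and ZT4. The median of that difference over the list was -1.24. An 18th gene, Vsig4, was at 0 reads in all 15 libraries, and Folr2 had at most 12 reads in any.

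Of 12 genes for secreted products, 4 were higher in ILC3, against 15.1% of all genes: Cxcl16 (2.18 ± 0.47, edgeR adjusted p = 0.00428), Tnf (0.98 ± 0.23, 0.00795), Il1b (1.64 ± 0.40, 0.00983) and Fn1 (1.45 ± 0.44, 0.0284). The Fn1 call was kept in 8 of the 15 fits without 1 library, and without ILC2 ZT10 replicate 1 the list's count was 8. Il10, an anti-inflammatory cytokine of gut macrophages, was lower in ILC3 by -1.72 ± 0.43 (edgeR adjusted p = 0.00998), and without the 2 shallow ILC2 libraries this was -1.26 and no longer passed. The list's median difference between ZT10 and ZT4 in ILC3 was -1.19, and 6 of its 12 genes had both ZT10 libraries lowest, against 1.63% of all genes. Il10 in ILC3 stood at 15.1 and 9.26 CPM (ZT4), 3.50 and 1.82 (ZT10), 6.45 and 5.07 (ZT16) and 4.2 and 6.86 (ZT23), the same order as the C1q chains.

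Of 10 other complement genes, 2 were higher in ILC3, among them properdin (Cfp, 1.75 ± 0.20, edgeR adjusted p = 5.06e-05), and 2 were lower. Over all genes 15.1% were higher and 12% lower in ILC3. The regulator Cd55 was lower by -4.01 ± 0.56 (edgeR adjusted p = 0.000211) and C2 by -0.82 ± 0.27 (0.0410), the latter call kept in 4 of 15 fits. The median difference between ZT10 and ZT4 was -1.07. Factor B (Cfb) had the smallest unadjusted p over time in ILC3 of this list (edgeR, 0.0419), with both ZT10 libraries lowest, at 9.67 and 8.92 CPM, and the highest level, 61.8 CPM, in ZT23 replicate 2.

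Among the ligands and partners of the 9 genes, 1 of 14 tested was called between the cell types, against 27.1% of all genes. It was Csf1, a ligand of CSF1R, lower in ILC3 by -1.94 ± 0.20 (edgeR adjusted p = 2.38e-05), at 13.2 to 32.4 CPM in ILC2 and 3.77 to 7.75 in ILC3 with no overlap. Il34, the other ligand, averaged 0.68 CPM in ILC3 and 1.09 in ILC2. The MERTK ligand gene Gas6 ranged from 0.37 to 46.9 CPM in ILC3 and was highest in ZT23 replicate 2 and ZT4 replicate 2 (26.0 CPM). These were the 2 ILC3 libraries highest in Mertk and also in the summed epithelial genes (10770 and 3703 CPM). The part of epithelial RNA in the Gas6 level was not tested. Axl, a receptor of the same family, had an unadjusted p of 0.0494 over time in ILC3 (edgeR) and a difference of -1.13 between ZT10 and ZT4.

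Of 8 transcription factor genes of macrophages, 3 were higher in ILC3 and Irf8 was lower (-0.82 ± 0.23, edgeR adjusted p = 0.0190). The shares of all genes were 15.1% higher and 12% lower in ILC3. Spi1, which encodes PU.1, was higher by 2.21 ± 0.29 (edgeR adjusted p = 0.000136), at 144 to 458 CPM in ILC3 and 22.6 to 70.6 in ILC2. Nr1h3 (1.33 ± 0.41, edgeR adjusted p = 0.0302) and Cebpa (0.94 ± 0.29, 0.0317) kept their calls in 6 and 7 of 15 fits, and the list's count went down to 1. Spi1 at ZT10, 238 and 248 CPM, lay between the other libraries.

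Of 16 lysosome and phagocyte adaptor genes, 4 were higher in ILC3 and 7 in ILC2, against 15.1% and 12% of all genes. The adaptor Fcer1g was higher in ILC3 by 2.27 ± 0.21 (edgeR adjusted p = 1.03e-05), while cathepsin L (Ctsl, -1.80 ± 0.22, 7.13e-05) and Gpnmb (-2.75 ± 0.39, 0.000226) were lower. The list's median difference between ZT10 and ZT4 in ILC3 was -0.39. Both ZT10 libraries were lowest for 1 of the 16, against 1.63% of all genes. That gene was Lgmn, at 275 and 171 CPM (ZT4), 90.1 and 74.1 (ZT10), 115 and 104 (ZT16) and 97.4 and 97.7 (ZT23), with the list's smallest unadjusted p over time in ILC3 (edgeR, 0.00272, adjusted p = 0.965). Its 2 ZT4 libraries were the highest of the 8, as for C1qa, and it was lower in ILC3 than in ILC2 by -0.71 ± 0.17 (edgeR adjusted p = 0.00848).

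**Figure D5:**
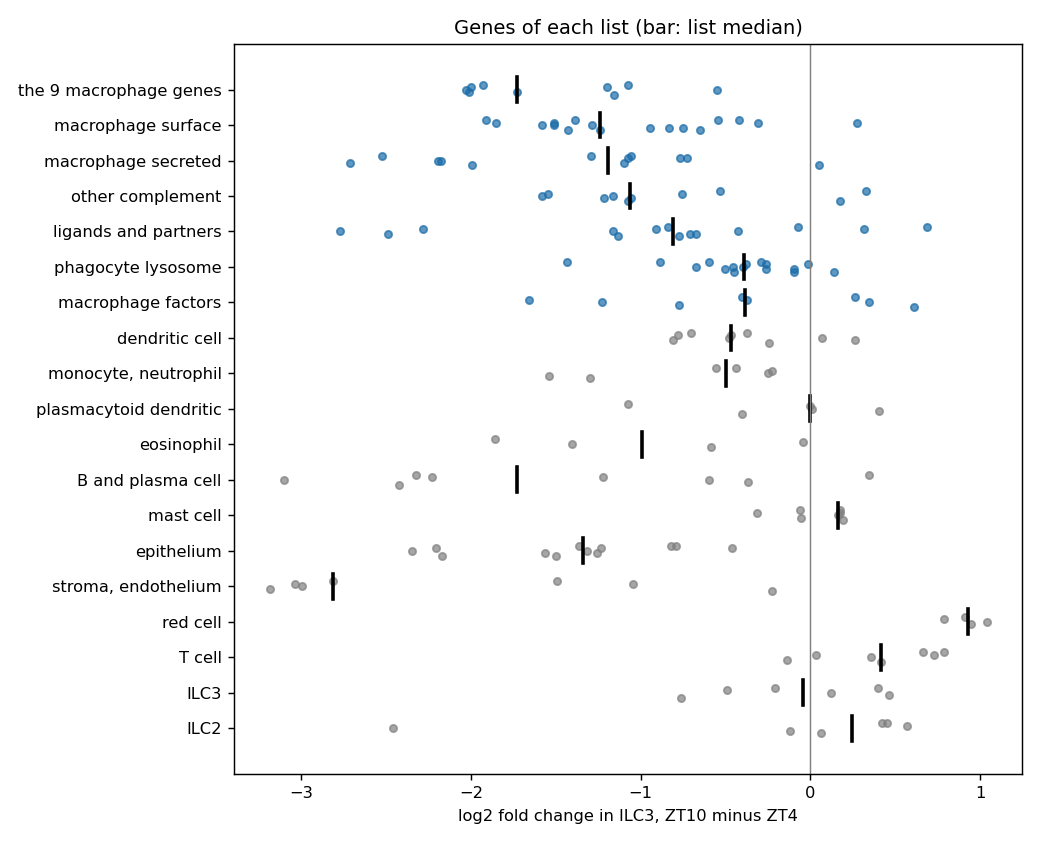
Fitted log2 fold change between ZT10 and ZT4 in ILC3 for each tested gene of the 9 macrophage genes, the 6 other macrophage lists (blue) and 12 lists of other cells and of the ILC themselves (grey). Each point is a gene and each black bar the list's median. The medians of the 9 genes and of the B and plasma cell list are both -1.73, that of the stroma and endothelium list is -2.81, and those of the ILC3, ILC2, T cell and mast cell lists lie between -0.04 and 0.42.

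Markers of other cells moved with the macrophage genes in part. The summed level of 8 B and plasma cell genes in ILC3 was 948 and 2597 CPM (ZT4), 549 and 519 (ZT10), 1615 and 1378 (ZT16) and 1706 and 4484 (ZT23), so that ZT10 was lowest here as well. That list's median difference between ZT10 and ZT4 was -1.73. Both ZT10 libraries were lowest for 3 of its 8 genes, Tnfrsf17, Mzb1 and Jchain, against 1.63% of all genes. In ILC2 its sums were 71350 and 99980 CPM (ZT4), 50950 and 37910 (ZT10), 100200 (ZT16) and 195500 and 19390 (ZT23), and did not peak in the 2 libraries where C1q did. The dendritic cell list had a median difference of -0.47 in ILC3, and its sums at ZT10, 1403 and 1533 CPM, were within the range of the other libraries. Of its 9 genes 7 were higher in ILC3 than in ILC2 and 1, Clec10a, was lower, against 15.1% and 12% of all genes. Batf3 was higher in ILC3 by 4.49 ± 0.54 (edgeR adjusted p = 7.1e-05). The summed mast cell level was 660 to 2850 CPM in ILC3 and 14.8 to 425 in ILC2, with a median ZT10 difference of 0.16. The stroma and endothelium list had the lowest median difference between ZT10 and ZT4 in ILC3, -2.81 over 7 genes, and the epithelium list had -1.34 over 12. For neither list did any gene have both ZT10 libraries below the other 6, and their sums in ILC3 were highest in ZT4 replicate 2 (369 CPM) and in ZT23 replicate 2 (10770 CPM). Among the remaining lists the medians were -0.995 for eosinophils (4 genes), -0.50 for monocytes and neutrophils (6 genes), -0.002 for plasmacytoid dendritic cells (5 genes) and 0.93 for red cells (4 genes). The part of these cells in the macrophage gene levels was not tested.

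The genes most like the 9 were sought by Pearson's r between log2 CPM and the mean standardised log2 profile of the 9. Over the 8 ILC3 libraries, among 10312 genes, they were Lilra5 (0.975), Il10 (0.969), Gbp2b (0.967), Fcgr4 (0.964), Mmp14 (0.960), Olfml3 (0.954), Tgfbi (0.952), Ms4a7 (0.942), Mmp9 (0.937) and Nepro (0.936). Fcgr4, an Fc receptor gene, stood at 42.4 and 23.3 CPM at ZT4 and at 7.84 and 9.51 at ZT10. Over the 7 ILC2 libraries, among 9855 genes, 9 of the 10 were Tubb6 (0.995), Cx3cr1 (0.985), Clec4a2 (0.978), Nlrp3 (0.975), C5ar1 (0.971), Slc15a3 (0.971), Mefv (0.967), Lgmn (0.966) and Cd14 (0.964). No gene was on both lists of 10. The mean profile includes each of the 9 genes itself, which by construction raises r for them. Among the 9 themselves, r with their own mean profile in ILC3 was 0.95 to 0.97 for the C1q chains and Apoe, 0.84 to 0.88 for Csf1r, Adgre1 and Lyz2, 0.65 for Mertk and 0.52 for Cd68. In ILC2 it was 0.93 to 0.99 for 7 of the genes, 0.63 for Cd68 and -0.49 for Mertk. With 7 or 8 points that share library depth and composition, these values only describe likeness.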

How the data were processed

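PolyA RNA of sorted intestinal ILC2 (7 libraries) and ILC3 (8 libraries) was sequenced. For each library the authors deposited a table of unnormalized counts of reads per Entrez gene, beside a gene model length in bases. Reads were counted with featureCounts on mm10, per the submitters' processing notes. The aligner, strand setting and handling of reads with several matches are not given in the sources used here. Of 22797 identifiers, 22718 were named through the RefSeq table of GRCm38.p6, which also gave positions and promoter sequences.

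The 9 genes and all gene lists were chosen with earlier results of these data known. Genes were filtered with filterByExpr (minimum count 10, leaving 15339), normalized by TMM and modelled with 8 group means by edgeR 4.0.16's quasi-likelihood method (R 4.3.3). The contrasts were mean ILC3 against mean ILC2, time within each cell type (F-test over 4 times), and time by cell type, adjusted by the Benjamini-Hochberg method over all genes with a threshold of 0.05. Differences between 2 times are fitted log2 values ± SE with no p. Replicates differed by more than sampling noise (chi-square per degree of freedom 19.7 to 205). The fits were also run on simulated data, and the outcome is not given here. Named genes were the 9, up to 3 of each list by smallest cell type p and 2 by smallest ILC3 time p, and the 10 most alike per cell type with a mean of at least 5 CPM; other genes are named for their values, and a few genes of these lists are not reported here. Alternatives were RLE factors, library size alone, no filter, a minimum count of 30, DESeq2 1.42.0, limma 3.58.1 voom, the cell type's own libraries, a replicate block and leaving out each library. Limits for counts of 0 cover counting error only.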

Additional observations from a re-analysis of the deposited data

How the results depend on the processing

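Of the 9 genes, edgeR called 3 between the cell types, 5 with DESeq2, 1 with the replicate number as a block (without ILC2 ZT16, which carries no number), and 1 to 5 without 1 library (5 without ILC2 ZT10 replicate 1). Without the 2 shallowest ILC2 libraries, chosen after seeing the data, it was 8. Over all genes the count between cell types was 3270 to 4214 without 1 library, of which 1722 to 2520 were higher in ILC3 and 1540 to 1933 higher in ILC2. Csf1r passed with library size as the only scaling, with no filter, with DESeq2 and with limma voom. Library size alone moved the median of all genes by 0.15. The near-zero differences of C1qb (-0.0868 to 0.781 without 1 library) and Apoe (-0.1824 to 0.6944) changed sign without ILC2 ZT4 replicate 2 (-0.01166 and -0.00738), ILC2 ZT10 replicate 2 (-0.05616 and -0.05704) and the ILC2 ZT16 library (-0.0868 and -0.1824). Over time, DESeq2 called 28 genes in ILC3, 24 in ILC2 and 2 for the interaction against 0 with edgeR, and without 1 library edgeR called 0 to 3 in ILC3 (3 without ZT23 replicate 1) and 0 in the other tests. None of the 9 was called over time under any alternative run, where DESeq2 gave 1 of them no adjusted p in ILC3. The cause of these changes was not tested. Whether replicate numbers pair the libraries was not settled. The differences between replicates correlated between groups with r of -0.16 to 0.43, reaching 0.39 within ILC3 and 0.08 within ILC2. Among the 9, the block fit lacked only the calls of Lyz2 and Adgre1, and both were also lost without ILC2 ZT16 alone. Every fit without ILC2 ZT16 took the cell type difference over ZT4, ZT10 and ZT23 only. The 2 libraries a time limit what these data can show.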
